A study of Mus musculus with 9 samples.

Results

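The 4 mouse Hox gene clusters were examined in the deposited region lists of 3 histone marks in 3 pancreatic cancer cell lines. The clusters were taken as fixed windows of genome build mm9. Hoxa lay on chromosome 6 from 52100000 to 52220000 and Hoxb on chromosome 11 from 96050000 to 96240000. Hoxc lay on chromosome 15 from 102745000 to 102875000 and Hoxd on chromosome 2 from 74500000 to 74610000. A region belonged to a cluster if it overlapped the window by at least 1 bp. Of 185632 regions in the 9 lists, 47 did so: 27 of H3K27me3, 17 of H3K4me3 and 3 of H3K27ac. By line these were 16 regions in the KO female line, 16 in the KO male line and 15 in the WT male line. The windows span 550 kb and hold 38 listed Hox genes.

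The study profiled chromatin by ChIP-seq in cell lines from mouse pancreatic cancer, to ask about the part played by the histone demethylase Kdm6a. The KO female and KO male lines lack Kdm6a per the labels, and the WT male line carries it. All 3 lines came from pancreas of mice of a mixed C57BL/6 and SV129 strain, were grown in F12/DMEM with EGF and received no treatment. Each mark had 1 library per line, so no difference below has a replicate check and none was tested, and sex differs along with genotype between the KO female and the WT line. The labels do not give the allele of Kdm6a, the other mutations of the tumours or the number of clones behind a line, and the deletion was not checked here. Per library, the regions held between 2396174 and 18507923 reads, a sum that grows with the length called and is not the depth. The level of a library was therefore taken as its reads per kb over autosomal bins held by each of the 3 lists of that mark. For H3K27me3 this was 67.1 in the KO female line, 23.1 in the KO male line and 17.6 in WT. For H3K4me3 it was 187, 118 and 173, and for H3K27ac 71.0, 88.2 and 39.5.

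Hox genes encode homeodomain transcription factors that give cells their position along the body axis. They sit in clusters in the order of their paralogous groups, and the order along the chromosome follows the order in which they are expressed from head to tail. Outside their domains of expression the clusters are held silent by Polycomb complexes, which write H3K27me3 over the whole cluster. H3K4me3 marks promoters and H3K27ac marks active promoters and enhancers. Promoters with both H3K4me3 and H3K27me3, called bivalent, are typical of developmental genes in stem cells. Kdm6a, also called UTX, takes methyl marks off lysine 27 of histone H3 and also works in the complexes that methylate lysine 4.

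Genes were not placed on mm9 positions, because the gene table used here (RefSeq, GRCm38.p6) is of another build and serves only for the order of the genes. It held all 38 listed genes. In that order Hoxa13, the group 13 gene of its cluster, comes last along chromosome 6, after Hoxa2, Hoxa3, Hoxa4, Hoxa5, Hoxa6, Hoxa7, Hoxa9, Hoxa10 and Hoxa11. In the other 3 clusters the group 13 gene (Hoxb13, Hoxc13 or Hoxd13) comes first, and Hoxb1, Hoxc4 and Hoxd1 come last. Positions are therefore given below as distances from the window edge next to the group 13 gene. The promoters of 22 of the 38 genes were in the RefSeq table of the same build, 9 of them in Hoxa, 3 in Hoxb, 1 in Hoxc and 9 in Hoxd. In the 250 bases before the start they held a median of 12 CpG dinucleotides, with a range from 2 to 35, against a median of 6 over 32851 promoters. CpG-rich promoters are where both H3K4me3 and Polycomb are usually found. The upstream sequences of 4 genes are shown 5′ to 3′ with each CG in capitals, read on the strand of the gene. Hoxa2, Hoxa5 and Hoxa13 stand for the start, the middle and the end of the cluster in which the lines differed most in H3K4me3 and H3K27ac. Hoxd13 stands for a cluster with almost no H3K4me3 and no H3K27ac regions. H3K27me3 covered nearly all of both clusters.
Hoxa2: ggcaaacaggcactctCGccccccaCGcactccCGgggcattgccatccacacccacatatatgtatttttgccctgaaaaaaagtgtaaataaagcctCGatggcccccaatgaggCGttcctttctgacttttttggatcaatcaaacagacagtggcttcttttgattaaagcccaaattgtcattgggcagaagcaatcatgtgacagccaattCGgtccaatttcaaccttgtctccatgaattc
Hoxa5: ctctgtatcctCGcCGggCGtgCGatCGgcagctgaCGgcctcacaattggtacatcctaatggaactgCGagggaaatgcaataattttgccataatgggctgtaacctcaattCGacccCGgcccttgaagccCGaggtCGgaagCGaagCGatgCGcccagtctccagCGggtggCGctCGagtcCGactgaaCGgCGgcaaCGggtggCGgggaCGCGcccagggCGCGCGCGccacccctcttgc
Hoxa13: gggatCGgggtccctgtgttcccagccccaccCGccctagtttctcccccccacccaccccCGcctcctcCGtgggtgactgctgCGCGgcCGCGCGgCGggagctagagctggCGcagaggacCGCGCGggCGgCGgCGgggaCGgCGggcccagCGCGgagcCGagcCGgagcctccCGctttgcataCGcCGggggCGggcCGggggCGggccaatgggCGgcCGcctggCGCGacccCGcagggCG
Hoxd13: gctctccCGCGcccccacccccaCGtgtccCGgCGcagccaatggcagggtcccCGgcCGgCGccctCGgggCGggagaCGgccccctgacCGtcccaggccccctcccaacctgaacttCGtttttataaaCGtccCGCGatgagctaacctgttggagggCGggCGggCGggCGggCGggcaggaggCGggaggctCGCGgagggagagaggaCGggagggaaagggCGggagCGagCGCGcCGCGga
Hoxa2, which patterns the hindbrain and branchial arches, had 6 CpG, a number reached by 50.4% of all promoters. Hoxa5 had 28, reached by 7.61% of promoters. Hoxa13 and Hoxd13, which act in limb, gut and urogenital development, had 35 and 31, reached by 2.97% and 5.19%. These 4 promoters thus span from an average to a very high CpG content, and Hoxa13, Hoxd13 and Hoxa5 had the highest counts of the 22. Others of the 22 lay below the average, down to Hoxd11 with 2, a number reached by 81.2% of all promoters. Since none of the 22 was placed on mm9, no region below is assigned to a promoter.

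H3K27me3 covered nearly all of the 4 windows in every line. Of the 550 kb, regions covered 549.2 kb in the KO female line, 542 kb in the KO male line and 523.8 kb in WT, or 99.9, 98.5 and 95.2%. The Hoxa and Hoxc windows were covered in full in all 3 lists. Hoxb was covered over 99.6% in the KO female line, 97.3% in the KO male line and 89.9% in WT. Hoxd was covered over 100, 97.5 and 93.6%. In both incomplete clusters the order of the lines was KO female, KO male, WT. Over 100 kb tiles of the genome the mean coverage had the same order, at 13.1, 9.02 and 5.49%.

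These coverages lay far above the level of the genome. All 4 windows had H3K27me3 over at least 50% of their length in each list, whereas among 26367 tiles of 100 kb on chromosomes 1 to 19 and X this was so for 11.3% in the KO female list, 6.78% in the KO male list and 3.07% in WT. Tiles covered in full were rarer still, at 0.857, 0.0986 and 0.0114%, which is 3 tiles in WT. The tiles are shorter than the windows, and a longer stretch is harder to cover in full. The KO lists covered 0 of the 4 windows by at least 20 percentage points more than WT, a difference found at 15.7% of tiles for the KO female line and 7.63% for the KO male line. The windows had no room for it, since WT already covered at least 89.9% of each. In the plot of tile coverage the Hox windows sit at the right end in each line.

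**Figure D1:**
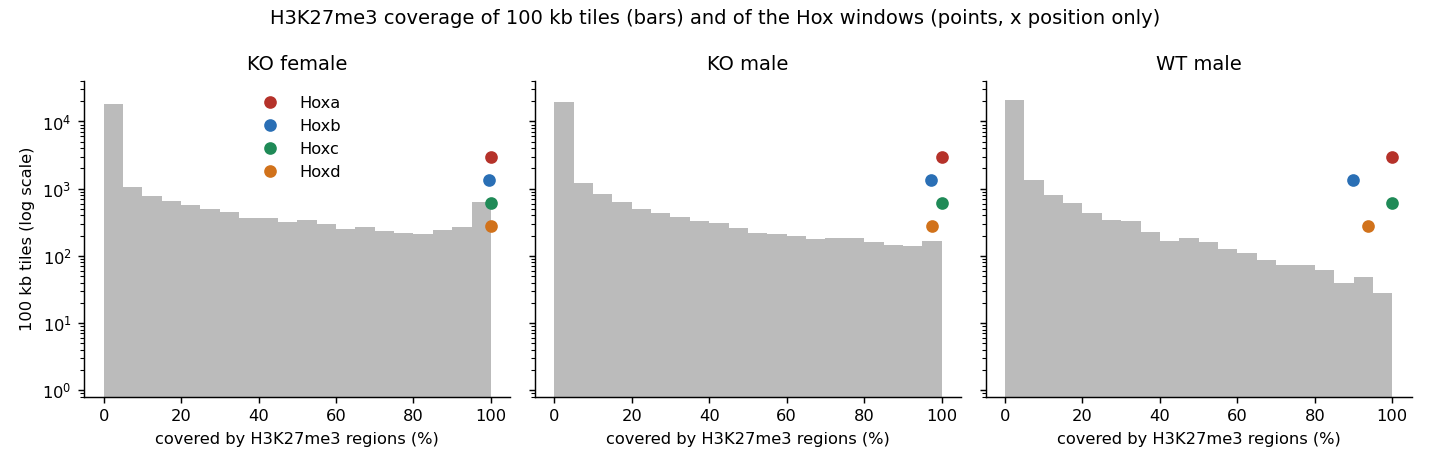
Number of 100 kb tiles (bars, log scale) by the percent of the tile covered by H3K27me3 regions, in the lists of the KO female, KO male and WT male lines, with the coverage of the 4 Hox windows as points (only their horizontal position has a meaning). The points lie between 89.9 and 100%, where few tiles are found in WT.

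Each list held some of its longest H3K27me3 regions over the clusters, beside short ones of down to 2.4 kb in WT and 1.8 kb in the KO male list. In WT, 3 of the 7 H3K27me3 regions of at least 100 kb overlapped a Hox window. In the KO male list 4 of 64 did so, and in the KO female list 5 of 351. The Hoxc region was the longest of all 26288 regions in WT, at 171.2 kb, and of all 28263 in the KO male list, at 350.6 kb. In the KO female list it ranked 4 by length, at 426.8 kb. It also held the most reads of any region in WT, 5132, and in the KO male list, 13925, and ranked 2 in the KO female list, with 47084. The Hoxa region held 4221 reads in WT, 7216 in the KO male list and 37432 in the KO female list, which ranked 2, 6 and 5. By read count the leading Hox regions were thus those of Hoxc and Hoxa in the 3 lines. By length the KO female list had a Hoxb region of 274.2 kb ahead of its Hoxa region of 225.4 kb. The Hox regions together made up 0.687% of the H3K27me3 reads in regions in WT, on 0.403% of the covered length. For the KO male list these shares were 0.718 and 0.369%, and for the KO female list 0.767 and 0.343%.

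**Figure D2:**
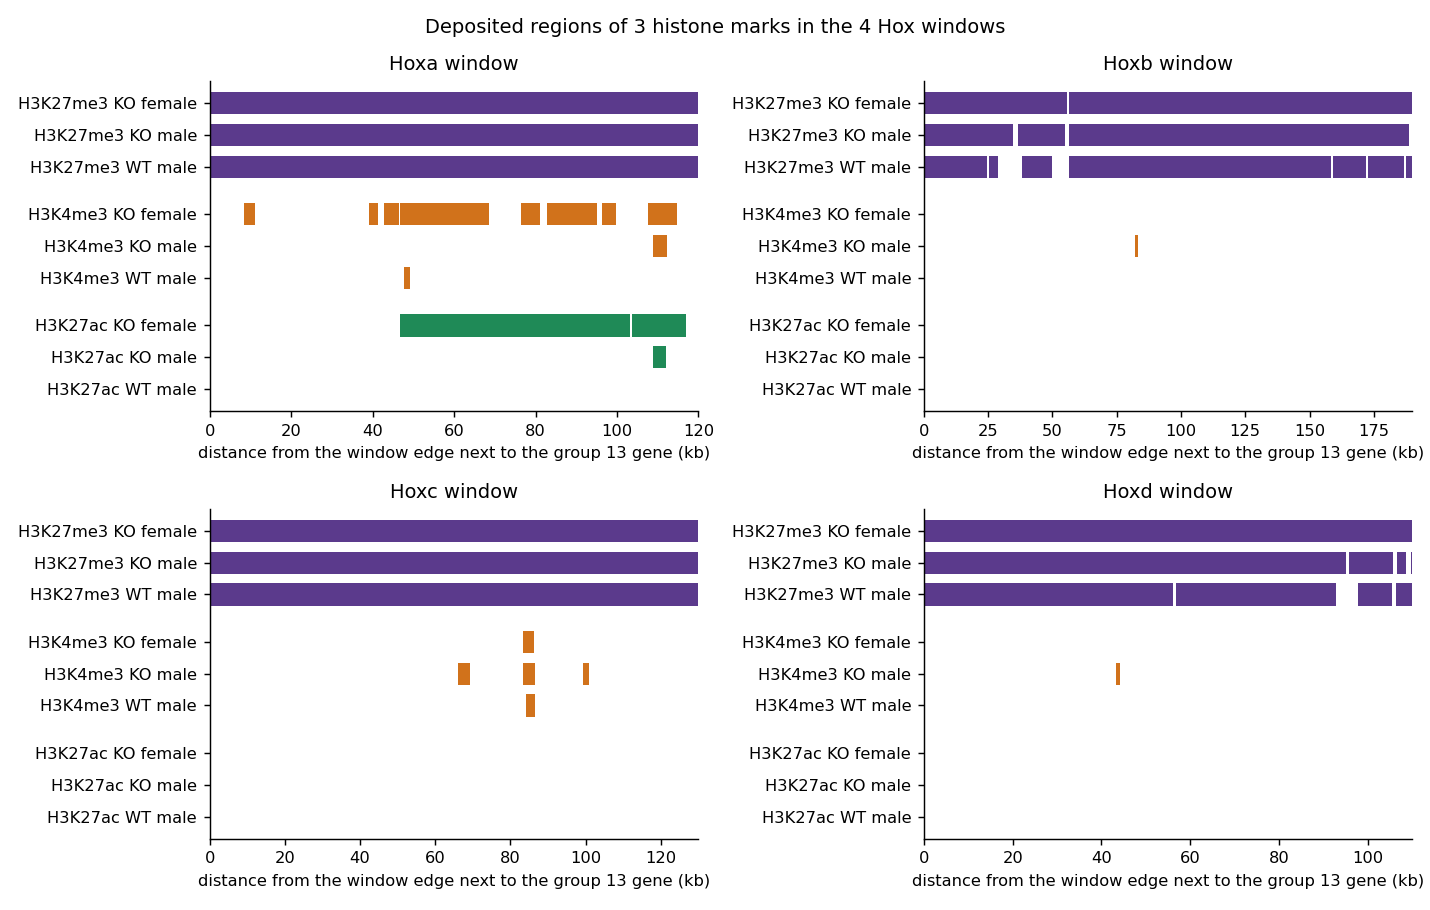
Regions of H3K27me3 (purple), H3K4me3 (orange) and H3K27ac (green) in the lists of the 3 lines, drawn inside each Hox window by distance in kb from the edge next to the group 13 gene. H3K27me3 fills nearly all of each window in each line, and a long stretch of H3K4me3 and H3K27ac regions appears in Hoxa of the KO female line.

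The H3K27me3 borders lay farther out than in WT at 8 of the 8 window edges in the KO female list and at 7 of 8 in the KO male list. H3K27me3 regions were longer in the KO lists over the genome as well, with medians of 8.4 kb (KO female), 5.2 kb (KO male) and 3.8 kb (WT). How often KO borders lay past WT borders elsewhere was not counted, so whether these counts are particular to the Hox windows is not known. In the KO male list the lead over WT was 0.4 kb or less on the Hoxc4 side and on the Hoxa2 side. With regions closer than 1 kb joined, an alternative chosen after seeing the data, the counts were 7 and 6 of 8, since the WT border on the Hoxb13 side moved from 4.8 to 27.2 kb past the window, beyond the 26.6 kb of the KO male list, and that on the Hoxd13 side moved from 7.8 to 19.2 kb, the value of the KO female list. At Hoxc the side of Hoxc13 showed the widest spread: the region began 188 kb before the window in the KO female list, 186.8 kb in the KO male list and 7.8 kb in WT. The KO borders there, at 102557001 and 102558201 on chromosome 15, were 1.2 kb apart. On the other side of Hoxc the regions ended 108.8, 33.8 and 33.4 kb past the window, so that the KO male and WT borders, at 102908800 and 102908400, were the close pair. At Hoxa the regions ended 63.6, 60 and 1.4 kb past the window on the side of Hoxa13. On the side of Hoxa2 they began 41.8, 3.6 and 3.4 kb before it, at 52058201, 52096401 and 52096601 on chromosome 6. The KO male borders thus lay nearer to those of the KO female line on the group 13 side of both clusters and nearer to WT on the other side. This order failed on the Hoxc4 side with joining at 1 kb and on both sides of Hoxa with joining at 10 kb. It also failed on the Hoxc13 side with joining at 10 kb. There the spans began 188 (KO female), 186.8 (KO male) and 187.8 kb (WT) before the window.

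Much of the length between the KO and WT borders was covered in WT too, in separate regions. Over the 188 kb before the Hoxc window, WT held H3K27me3 in separate regions over 168.6 kb, or 89.7%. Over the 63.6 kb past Hoxa13 the WT list covered 80.8%, and over the 41.8 kb on the side of Hoxa2 it covered 52.2%, against 90.4% in the KO male list and 100% in the KO female list. When regions closer than 10 kb were joined, also chosen after seeing the data, the Hoxc span began 187.8 kb before the window in WT as well, at 102557201, and its length was 421.8 kb in WT, 423 kb in the KO male list and 459.6 kb in the KO female list. The WT and KO spans of Hoxc then began within 1.2 kb of each other. The KO male and WT spans also ended close together on the Hoxa13 side, 78.4 and 71.8 kb past the window against 263 kb in the KO female list, and on the Hoxc4 side, at 106.2 and 104 kb against 141.6 kb. On the Hoxd13 side the KO female and WT spans both began 19.2 kb before the window, and the KO male span 62.6 kb before it. The widest gap to WT was on the Hoxb1 side, where the joined spans ended 386.2 kb past the window in the KO female list, 325.4 kb in the KO male list and 3 kb in WT. The WT span stopped at a stretch without WT regions, 193 to 206.6 kb from the Hoxb13 edge, longer than the 10 kb joined. Separate WT regions went on past it, and WT covered 69.7% of the 140.8 kb past the window on this side. On the Hoxa2 side the joined spans began 119.4, 107.8 and 39.8 kb before the window, with the KO male line there nearer to the KO female line. After this joining the KO spans reached farther out than WT at 7 of 8 edges in each KO list. Joining regions closer than 1 kb already moved the KO male border on the Hoxc4 side from 33.8 to 106.2 kb past the window, near the 108.8 kb of the KO female list, while WT stayed at 33.4 kb. Single borders thus depended on gaps of under 1 kb. The H3K27me3 lists differ in level by library, 67.1, 23.1 and 17.6 reads per kb in shared bins. The spans as deposited followed this order at Hoxa, Hoxb and Hoxc, but at Hoxd the KO male span, 134.8 kb, was longer than that of the KO female list, 131 kb. The part of depth in the borders was not tested.

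**Figure D3:**
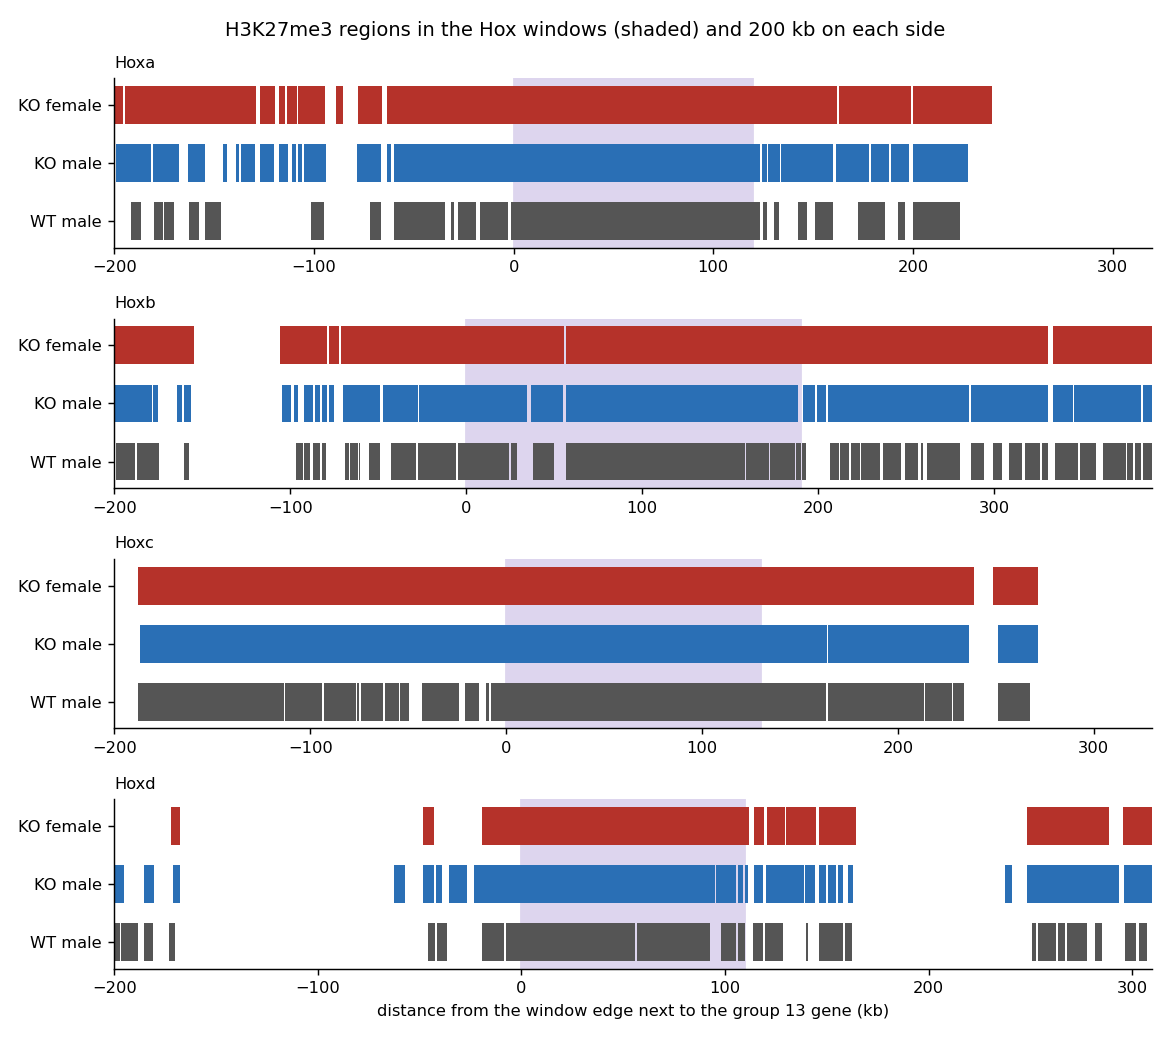
H3K27me3 regions of the 3 lines in each Hox window (shaded) and up to 200 kb on both sides, by distance in kb from the edge next to the group 13 gene. Much of the marked length is common to the 3 lines, in longer joined regions in the KO female line and in shorter pieces in WT, as on the side of Hoxc13, where WT covers 89.7% of 188 kb.

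Hoxb and Hoxd had gaps in H3K27me3, and these were longest in WT. The lists left 10 gaps of 26.2 kb in all in WT, 6 gaps of 8 kb in the KO male list and 1 gap of 0.8 kb in the KO female list. The library levels ran the opposite way, at 17.6, 23.1 and 67.1 reads per kb in shared bins. The part of depth in the gaps was not tested, and gaps elsewhere in the genome were not counted. None of the 17 gaps, which are counted per list and partly share a place, held an H3K4me3 or H3K27ac region of any line. There was little to find: Hoxb and Hoxd held no H3K27ac in any list. Their only H3K4me3 was 1.4 kb in Hoxb and 1 kb in Hoxd of the KO male list. The longest, 9.4 kb, lay in Hoxb of WT from 96078801 to 96088200 on chromosome 11. Inside it the KO male list left a gap of 2.2 kb and the KO female list none. A second gap of Hoxb recurred in all 3 lists: it was 6.6 kb long in WT, 1.8 kb in the KO male list and 0.8 kb in the KO female list. It ended at 96106600 in each, so a region began at the same base, 96106601, in the 3 lines, 56.6 kb from the edge on the Hoxb13 side. From there regions ran on for 101.8 kb in WT, 132.2 kb in the KO male list and 274.2 kb in the KO female list. Hoxb13 and its nearest listed neighbour in the order, Hoxb9, are known to be set apart by a long stretch without Hox genes. In Hoxd the longest gap was 5 kb in WT, from 74592801 to 74597800 on chromosome 2, toward Hoxd1. The KO male list had a gap of 0.8 kb within it and the KO female list none. The places where WT had no H3K27me3 thus held, in part, narrower gaps of the KO lists.

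H3K27me3 read density was compared over bins held by all 3 lists, relative to the level of each library. Each count was spread evenly over its region. A region that ran past the window was thus averaged with its flanks, here and in the ratios below. The Hoxa window is 120 kb long. Its regions were 225.4 kb long in the KO female list, 183.6 kb in the KO male list and 124.8 kb in WT. WT had 33.8 reads per kb in Hoxa, 25.0 in Hoxb, 30.0 in Hoxc and 24.5 in Hoxd. The KO male list had 39.3, 39.5, 39.7 and 40.0, and the KO female list 166, 114, 110 and 92.5. Divided by the library's own level, the windows stood at 1.40 to 1.92 in WT, 1.70 to 1.73 in the KO male list and 1.38 to 2.48 in the KO female list. The clusters were therefore above the average of shared H3K27me3 bins in each line. Their densities were nearly equal in the KO male line and unequal in the KO female and WT lines. In both of the latter Hoxa was the highest and Hoxd the lowest, at 1.92 and 1.40 in WT.

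On this scale the log2 ratio of KO female over WT was 0.36 for Hoxa, 0.25 for Hoxb, -0.05 for Hoxc and -0.02 for Hoxd. That of KO male over WT was -0.18, 0.27, 0.01 and 0.31. Both comparisons use the same WT list. The median over 3922 tiles with at least 4 kb of shared bins was -0.19 for the KO female line and -0.06 for the KO male line. Hoxa was above 87.2% of the tiles in the KO female comparison and above 31.1% in the KO male comparison. Hoxb was above 81.1 and 91.1%, Hoxc above 59.3 and 62.3%, and Hoxd above 62.1 and 93.1%. None of the 8 values reached 1 in size. Among tiles, 0.255% were at least 1 higher and 3.29% at least 1 lower for the KO female line, and 0.331 and 0.0255% for the KO male line. Both the signs and this bound rest on the scaling: with all reads in regions as the level, each ratio was lower by 1.02 for the KO female line and by 0.61 for the KO male line, and all 8 were below 0, with Hoxc at -1.07 and Hoxd at -1.04 in the KO female line, past 1 in size. The ranks among tiles do not change with the scaling.

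**Figure D4:**
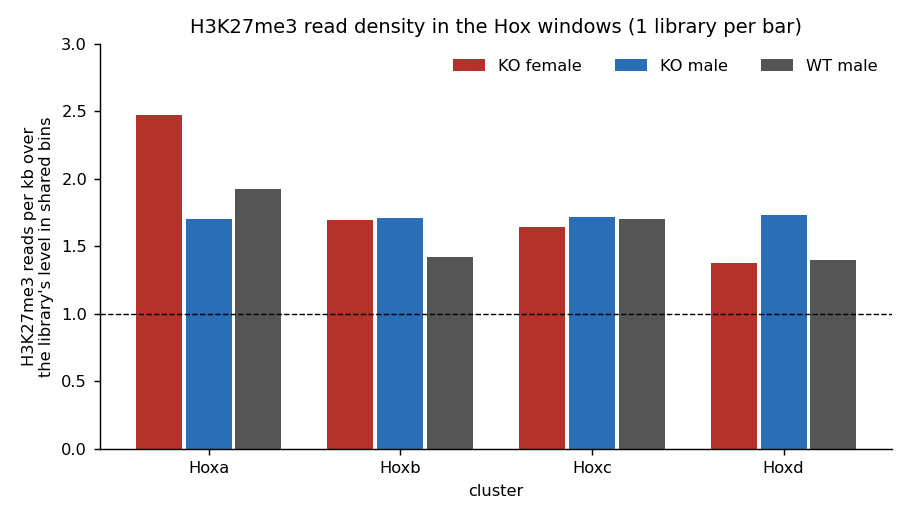
H3K27me3 reads per kb in each Hox window, over bins held by all 3 lists, divided by the level of the library over its shared autosomal bins (dashed line at 1), with 1 library per bar and no error bars. Each count was spread evenly over its region, also where the region ran past the window. All 12 bars lie above 1, and the highest is Hoxa in the KO female line, at 2.48.

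H3K4me3 and H3K27ac were scarce in the windows except in Hoxa of the KO female line. There, 8 H3K4me3 regions covered 58.4 kb, or 48.7% of the Hoxa window, and 2 H3K27ac regions covered 69.8 kb, or 58.2%. The KO male list had 1 H3K4me3 region of 3.6 kb and 1 H3K27ac region of 3.2 kb in Hoxa. WT had 1 H3K4me3 region of 1.6 kb and no H3K27ac region. The KO female line thus stood above both other lines in both marks.

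Against the genome, Hoxa was the only window with H3K4me3 over at least 10% of its length, and only in the KO female list: 1 of 4 windows there and 0 of 4 in the other lists. Among tiles 12.0% passed this in the KO female list, 8.20% in the KO male list and 11.1% in WT. For H3K27ac the windows counted 1, 0 and 0 of 4, against 21.8, 18.1 and 14.1% of tiles. Outside Hoxa of the KO female line, the highest coverage was 6.31% for H3K4me3, in Hoxc of the KO male line, and 2.67% for H3K27ac. The KO female list covered Hoxa by 47.3 percentage points more than WT in H3K4me3 and by 58.2 points more in H3K27ac. With the lists cut to the same covered length these were 24.2 and 11 points, so that H3K27ac no longer passed the 20 points used next. A difference of at least 20 points was found at 0.140% of tiles for H3K4me3 and 6.58% for H3K27ac. At 0.125% of tiles the H3K4me3 of the KO female list was at least 20 points above both other lists, and for H3K27ac at 3.80%, comparisons chosen after the values were seen. For the KO male list 0 of 4 windows were 20 points above WT in either mark, against 0% and 1.36% of tiles.

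The H3K4me3 and H3K27ac of Hoxa in the KO female line did not reach evenly to both ends of the cluster. The longest H3K4me3 region, with the most reads, ran from 52151401 to 52173200 on chromosome 6, 46.8 to 68.6 kb from the edge on the Hoxa13 side. It was 21.8 kb long and held 3237 reads, or 148 per kb, and it ranked 168 by length among 14056 regions of the list. The densest, from 52105201 to 52112400 near the Hoxa2 end, held 1738 reads over 7.2 kb, or 241 per kb. The other 6 regions had between 32.1 and 118 reads per kb and overlapped no H3K4me3 region of the other lines. They lay from 52120201 to 52123800, from 52124801 to 52137200, from 52138801 to 52143600, from 52173601 to 52177200, from 52178601 to 52181000 and from 52209001 to 52211600. How many of the 14056 regions of the list overlapped none in the other lists was not counted, so these 6 are not set against the genome. The H3K27ac regions ran from 52103001 to 52116200, with 962 reads, and from 52116801 to 52173400, with 2643 reads over 56.6 kb. They were 0.6 kb apart and ended 46.6 kb short of the edge on the Hoxa13 side. The end of H3K27ac, at 52173400, and the end of the longest H3K4me3 region, at 52173200, were 1 bin of 200 bp apart.

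In segments of 20 kb counted from the Hoxa13 side, H3K27ac of the KO female line covered 0, 0, 67, 100, 100 and 82% of the length. H3K4me3 covered 13, 5, 91, 61, 86 and 36%. Past the end of H3K27ac, 3 short H3K4me3 regions remained, of 3.6, 2.4 and 2.6 kb, with 150, 77 and 90 reads. The last of these lay alone, 8.4 to 11 kb from the edge. The 60 kb of the window away from Hoxa13 thus carried 56.4 of the 69.8 kb of H3K27ac and 36.6 of the 58.4 kb of H3K4me3. In gene order this is the side of Hoxa2 and Hoxa3, and the 2 segments without H3K27ac are on the side of Hoxa11 and Hoxa13, whose products pattern the limb and the genital tract.

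**Figure D5:**
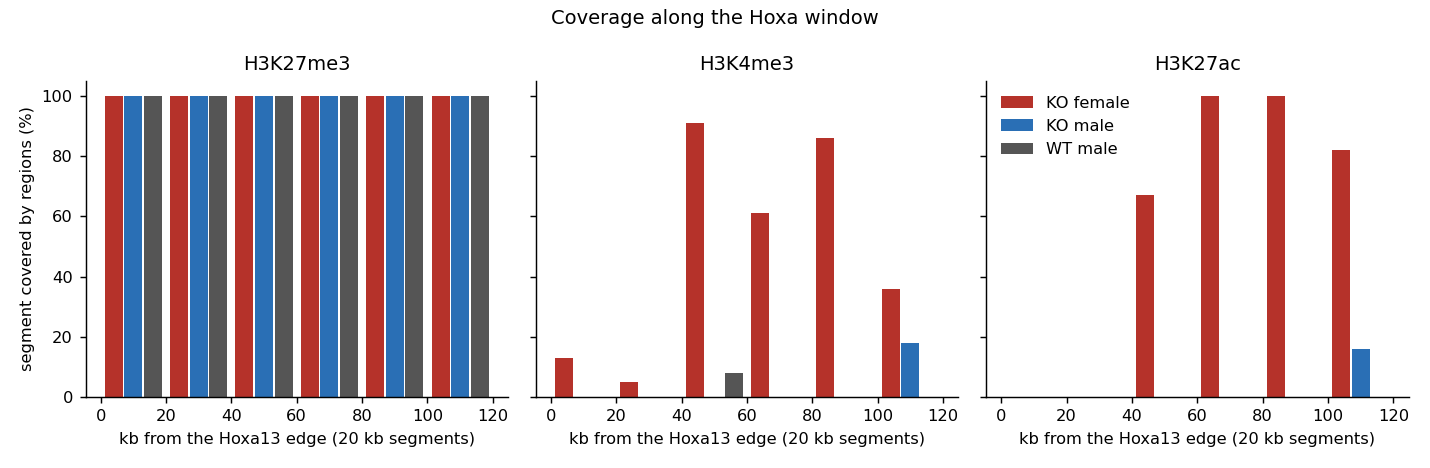
Percent of each 20 kb segment of the Hoxa window covered by regions of H3K27me3, H3K4me3 and H3K27ac in the 3 lines, by distance in kb from the edge on the Hoxa13 side. H3K27me3 covers every segment in each line, and H3K27ac of the KO female line is absent from the first 40 kb and covers 67 to 100% of the others.

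The short regions of the other lines in Hoxa lay inside the stretch of the KO female line. The H3K4me3 region of the KO male line ran from 52107601 to 52111200 with 209 reads, and its H3K27ac region from 52108001 to 52111200 with 184 reads. Both fell within the densest H3K4me3 region of the KO female line near the Hoxa2 end, where WT had neither mark. The pair of KO lists thus shared 3.6 kb of H3K4me3 and 3.2 kb of H3K27ac in Hoxa that the WT list lacked. The H3K4me3 region of WT, from 52170801 to 52172400 with 83 reads, lay at the other end of the stretch, within the longest region of the KO female line. It did not overlap the region of the KO male line.

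The densities of the KO female regions in Hoxa lay within the range of the other lists, for H3K4me3 with a median below theirs. Scaled to the level of the WT library, the 8 H3K4me3 regions of the KO female line would have 29.6 to 223 reads per kb. Their median would be 48.1, where the WT list has a lowest region of 18.3 and a median of 131. Scaled to the KO male library they would have 20.2 to 152 with a median of 32.9, against a lowest region of 12.8 and a median of 90.6. The 2 H3K27ac regions would have 26 and 40.6 reads per kb at the WT level, against a lowest of 9.64 and a median of 29.6 in the WT list. At the KO male level they would have 58.0 and 90.5, against 15 and 55.8. Regions of such density were listed elsewhere in the other libraries, but for the weakest H3K4me3 region near the low end. Only 4.03% of WT and 1.83% of KO male H3K4me3 regions lay below it. For the lower H3K27ac region these shares were 37.5 and 53.1%. The part of depth in these calls was not tested. A density does not decide a call alone, and control libraries are not described for these lists.

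H3K27me3 covered all of this stretch as well. Every H3K4me3 and H3K27ac bin of the windows, 61.2 and 69.8 kb in the KO female line, 14.2 and 3.2 kb in the KO male line and 4.2 and 0 kb in WT, lay inside an H3K27me3 region of the same line. This overlap of 100% compares with 14.8, 10.7 and 3.92% of H3K4me3 bins on chromosomes 1 to 19 and X, and with 10.8, 2.99 and 0.383% for H3K27ac. Windows covered almost in full by H3K27me3 leave little room for any other value. In Hoxa of the KO female line all 3 marks lay together on 49.8 kb, H3K27me3 and H3K27ac on 20 kb, H3K27me3 and H3K4me3 on 8.6 kb, and H3K27me3 alone on 41.6 kb. The 3 marks together thus took 41.5% of the window, a share reached by 1 of 26367 tiles in that list, and that tile overlapped the Hoxa window. In the KO male list they took 2.67%, reached by 293 tiles. By the looser rule of H3K27me3 over at least 50% and the other marks over at least 10% each, 1 of 4 windows passed in the KO female list and 0 of 4 in the others, against 1.69% of tiles there, 0.341% in the KO male list and 0.0341% in WT. A region is called as 1 block with 1 count, so a dip of H3K27me3 inside it cannot be seen, and the lists do not show whether the marks were on the same chromosomes or in the same cells.

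Hoxc, whose genes act in the trunk, hind limb and hair follicle, held 1 place of H3K4me3 common to the 3 lines. The regions ran from 102828401 to 102831200 on chromosome 15 in the KO female list, with 196 reads, from 102828201 to 102831600 in the KO male list, with 248 reads, and from 102829001 to 102831600 in WT, with 162 reads. They shared 2.2 kb. This is the only stretch of H3K4me3 in the 4 windows that all 3 lists held, about 84 kb from the edge on the Hoxc13 side. Per kb the counts were 70, 72.9 and 62.3. Relative to the libraries' levels these were 0.374, 0.619 and 0.361, so that the KO female and WT lines were near each other and the KO male line stood 0.78 above WT on the log2 scale. That was above 98.5% of 5426 tiles with at least 4 kb of shared H3K4me3 bins, a longer base than the 2.2 kb here. All 3 values were under 1, so the place was weaker than the average shared H3K4me3 bin. With all reads in regions as the level the difference was 1.01 (log2).

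The KO male line had 4 further H3K4me3 regions that overlapped none in the other lists, and each was small. In Hoxc they lay from 102811001 to 102814200, with 118 reads, and from 102844201 to 102845800, with 39 reads. In Hoxb 1 lay from 96132001 to 96133400 on chromosome 11, with 40 reads over 1.4 kb. In Hoxd 1 lay from 74543201 to 74544200 on chromosome 2, with 17 reads over 1 kb, near the lowest count of the list, 10. The KO male line was thus the only one with H3K4me3 in all 4 windows, at 3, 0.737, 6.31 and 0.909% of Hoxa, Hoxb, Hoxc and Hoxd. The KO female and WT lists held none in Hoxb and Hoxd. By reads per kb the 4 regions of the KO male line alone ranked from 13750 to 16836 among the 16908 of its list. How many regions of that list overlapped none in the other lists was not counted, so the 4 are not set against the genome. No list held an H3K27ac region in Hoxb, Hoxc or Hoxd, which together span 430 kb. Of the 17 H3K4me3 regions in the windows 2 reached the median count of their list, both in Hoxa of the KO female line.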

How the data were processed

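ChIP-seq regions of H3K27me3, H3K4me3 and H3K27ac were analysed in 3 mouse cell lines, with 1 library per mark and line. Per the submitters' processing notes, Bowtie 1.1.2 and SICER 1 were used, with genome build mm9. The authors' deposited lists give chromosome, start, end and a whole number, read here as the count of reads per region. They have no header, so this reading rests on the values. Control libraries, thresholds and library depth: not given in the sources used here. No value was normalized in the files.

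Ends in the lists are inclusive. Positions are printed 1-based. Lists were turned into bins of 200 bp, and each count was spread evenly over its region. Coverage is the share of a window's bins in a region. The genome level came from 100 kb tiles. A relative density is reads per kb in bins held by the 3 lists of a mark, over the same for all such autosomal bins. With 1 library per group no test was run and no interval is given, since bins are not independent. Regions were named by a rule: the longest and the one with most reads per cluster, mark and line, and those found in 1 line only. The windows, genes and lists were chosen with earlier results of these data known. No comparison with expression or with mm9 gene positions was made.

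Python 3.11.15 was used with matplotlib 3.10.9, scipy 1.17.1, pandas 2.3.3 and numpy 2.4.6. Covered lengths were checked with bedtools 2.31.1 in 36 cases, with 0 differences, and tested on 200 simulated lists, of which 200 were recovered.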

Additional observations from a re-analysis of the deposited data

Results flagged for a closer look

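H3K27me3 density in Hoxa moved in opposite directions in the pair of KO lines relative to the same WT library. The relative log2 ratio was 0.36 in the KO female line and -0.18 in the KO male line. These densities are averages over whole regions, of 225.4 kb in the KO female list, 183.6 kb in the KO male list and 124.8 kb in WT. Region length and density inside the window therefore cannot be told apart here. The difference between the lines was not tested, since each had 1 library. With all reads in regions as the level both ratios were below 0, at -0.65 and -0.79.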

How the results depend on the processing

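Coverage, KO minus WT over the 4 windows, was 4.62 and 3.31 percentage points for H3K27me3 in the female and KO male lines, 10.4 and 1.82 for H3K4me3, and 12.7 and 0.582 for H3K27ac. None of these changed sign under the alternatives, and 2 became 0. Restricted to regions whose count reached the median of the list, the values were 5.67 for H3K27me3 in the KO female line, 5.27 and 0 for H3K4me3 and 0 for H3K27ac in the KO male line. After cutting the lists of a mark to one covered length they were 5.27 and 2.58 for H3K4me3 and 2.40 for H3K27ac in the KO female line, where Hoxa kept 11 points of 58.2. With windows 20 kb longer they were 8.87 and 7.10 for H3K27me3, and 8.03 for H3K4me3 and 9.83 for H3K27ac in the KO female line. Depth-scaled lists moved no coverage of the windows. That scaling drops only regions under the lowest density of the shallowest list: it kept 15242 of 21352 H3K27me3 regions in the KO female line and nearly all regions of the other lists. The overlap of H3K4me3 with H3K27me3 was 100% in each line under each alternative that left H3K4me3 in the windows.

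H3K27me3 density over the 4 windows, as log2 of KO over WT, was 0.17 and 0.10. With all reads in regions as the level it turned to -0.85 and -0.51, and so did Hoxa (-0.65) and Hoxb (-0.77) in the KO female line and Hoxb (-0.35) and Hoxd (-0.30) in the KO male line. That level counts regions that only the KO lists hold. Over all bins it was 0.23 and 0.14, and with longer windows 0.20 in the KO female line. For H3K4me3 it was 0.05 and 0.78 in shared bins, all in Hoxc, and 4.71 and 2.003 over all bins. H3K27ac gave no ratio, since WT had no region. Joining regions closer than 1 kb left 8 H3K27me3 regions in WT in place of 13, and 10 kb left 4 in WT and 4 in place of 9 in the KO male line. No paired analysis was possible because each group has 1 library.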
